A study of Sus scrofa domesticus with 2 samples.

Results

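Interferon-stimulated genes are switched on when a cell senses interferon or foreign nucleic acid. 10 of them, out of the 22804 genes in the matrices, were followed through cultured pig endothelial cells (ECs): the chemokine CXCL10, the antiviral effectors RSAD2, IFIT1, IFIT2, ISG15, MX1, MX2 and IFI6, the regulator IRF7, and EPSTI1. All 10 were measured in both libraries. They were picked by name after earlier results from the same libraries had placed CXCL10, RSAD2 and IFIT2 at the head of a lung EC cluster by fold change, so their levels, their joint detection and the share of cells that carry them are a description here and were not tested.

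Endothelial cells line blood vessels. The study grew primary ECs released by collagenase from pig lung and from the stretch of aorta close to it, in medium with 10% fetal calf serum, and each tissue gave 1 library, so no comparison has replicates. No interferon, virus or other agent is named for either culture, and the labels give no number, age or sex of the pigs. The lung library held 57213236 unique molecular identifiers (UMIs, each marking 1 captured transcript) in 5946 cell barcodes, with a median of 9326 per barcode, and the aorta library held 46080859 in 1185 barcodes, with a median of 45594. 5 barcode sequences occurred in both libraries.

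Interferons bind receptors on the cell surface, and JAK kinases then activate transcription factors, which bind a DNA element with repeated GAAA letters in front of their target genes. Cells that sense viral RNA through RIG-I or MDA5 make interferon beta through IRF3 and IRF7, and the interferon acts on the same cell and its neighbours. In endothelium this response adds chemokines that draw T cells to the vessel wall.

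The limits that the study set on cells (over 200 but below 5000 genes, and less than 30% of UMIs from mitochondrial genes) left 5683 lung cells but only 246 aorta cells, since most aorta barcodes held 5000 genes or more. The study describes more aorta cells than these limits leave here, and the mismatch is unresolved. Aorta values are therefore given first for the 955 cells that remain with no upper gene limit, and then for the 246. The study removed barcodes above 5000 genes as doublets, so the 955 include barcodes that this rule would discard. The lung cells keep the limit. Clusters were named from marker lists, with the 10 members and the other pathway genes kept out of the genes used for clustering. There were 4926 endothelial-like and 334 collagen-high lung cells, and 89 lung cells that were myeloid-like. The aorta gave 631 endothelial-like and 142 collagen-high cells, or 159 and 20 under the gene limit. Of those 159, 71 formed a cluster with a median of 2413 UMIs and 0.226% mitochondrial UMIs, in which the members summed to 5496 CPM and 9 cells were deep enough for thinning, so every endothelial-like value under the gene limit includes such barcodes. Of 13 endothelial markers, 11 reached 20 UMIs per 1000000 UMIs of the class (counts per 1000000, CPM) in lung endothelial-like cells and 12 in those of the aorta. Collagen-high cells carried COL1A1 at 5318 CPM in the lung and 4913 CPM in the aorta, together with mural markers. Intervals below are 95%, exact Poisson for levels and Clopper-Pearson for shares, and cover counting error only.

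The members lie on 7 pig chromosomes. Positions are those of RefSeq on Sscrofa11.1, while the counts rest on Ensembl models whose ends may differ. MX2 (ENSSSCG00000012076) and MX1 (ENSSSCG00000012077) are neighbours on chromosome 13, at chr13:204798633-204821612 and chr13:204843049-204868927, with 21436 bases between them. IFIT2 (ENSSSCG00000010451) at chr14:101193421-101204292 and IFIT1 (ENSSSCG00000010452) at chr14:101237403-101249486 are 33110 bases apart. These pairs are related in sequence, so reads of 1 could be counted for the other, which was not tested. ISG15 (ENSSSCG00000040575, chr6:63363201-63364211) and IFI6 (ENSSSCG00000034570, chr6:84852782-84858072) share chromosome 6 but are far apart. The rest are CXCL10 (ENSSSCG00000032474, chr8:71693641-71695948), RSAD2 (ENSSSCG00000008648, chr3:128880853-128897809), IRF7 (ENSSSCG00000012853, chr2:372235-375572) and EPSTI1 (ENSSSCG00000037572, chr11:24116991-24216219).

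Because the members moved together in the cells, the 250 bases before each RefSeq gene start were searched on both strands for GAAA, any 2 bases, GAAA, the core of the element that interferon-activated factors bind. 4 of the 10 members held it, which is 40% of them, against 589 of 19556 protein-coding genes (3.01%). The stretches that hold it in CXCL10, RSAD2 and ISG15 are shown on the strand of the gene, 5′ to 3′, with the core in capitals.
CXCL10, chr8:71696149-71696188, minus strand: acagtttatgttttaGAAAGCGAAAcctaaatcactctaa
RSAD2, chr3:128897915-128897954, minus strand: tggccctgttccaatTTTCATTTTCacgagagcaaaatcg
ISG15, chr6:63363052-63363117, plus strand: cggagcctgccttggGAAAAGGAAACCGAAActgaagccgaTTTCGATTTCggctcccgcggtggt
In ISG15 the capitals cover 3 matches, of which the 2 on the plus strand overlap and the other is on the minus strand. The match nearest to the annotated start ended 216 bases before it in CXCL10, 121 in RSAD2 and 99 in ISG15. The RSAD2 match and the last ISG15 match read TTTC because the core lies on the opposite strand. The other 6 members do not hold these letters in this window. A match is a stretch of letters and not a measured binding site.

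ISG15, a ubiquitin-like protein that is joined to other proteins, and IFI6, a membrane protein of the antiviral response, were the most abundant members in endothelial-like and collagen-high cells of both tissues. In lung endothelial-like cells ISG15 stood at 552 CPM (546 to 559) and IFI6 at 301 CPM (296 to 306). The scarcest member there was IFIT2, at 13.2 CPM (12.2 to 14.2). The libraries count tags at the 3′ end of transcripts, so levels of different genes were not divided by length.

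**Figure D1:**
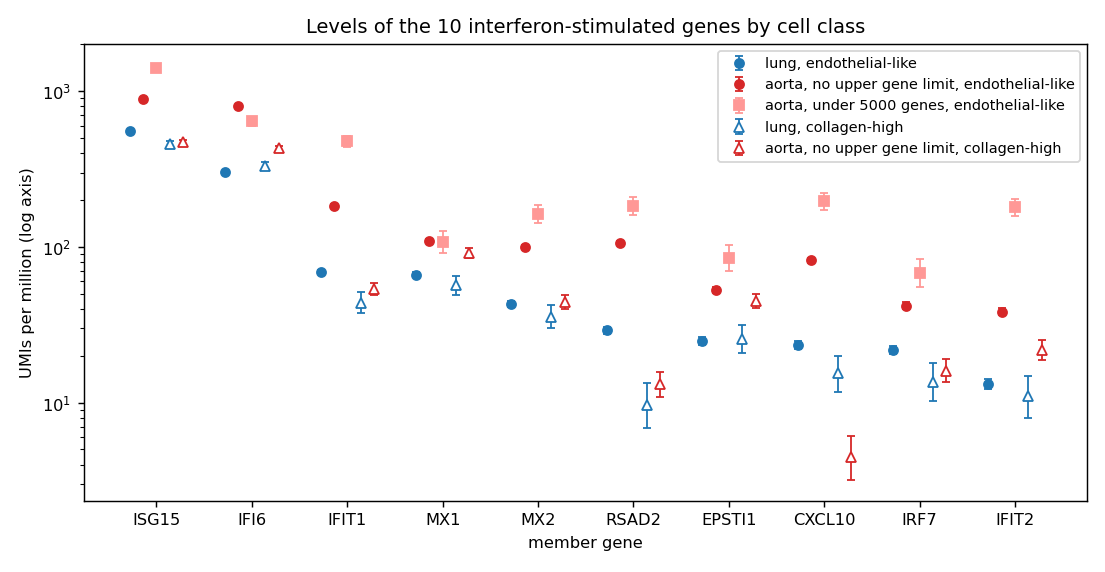
Level of each of the 10 members in CPM of a class (log axis), for endothelial-like cells (filled) and collagen-high cells (open) of the lung (blue) and the aorta (red), with pale squares for aorta endothelial-like cells under the gene limit. Bars are exact Poisson 95% intervals. ISG15 and IFI6 lie on top, and the gap between filled and open red symbols is widest for CXCL10, at 81.7 against 4.47.

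In aorta endothelial-like cells ISG15 was at 885 CPM and IFI6 at 803 CPM. All 10 members had a higher level there than in the lung. Together they made up 2400 CPM (2384 to 2416) in the aorta and 1144 CPM (1134 to 1153) in the lung. Under the gene limit the aorta sum was 3511 CPM (3411 to 3613), and 3324 CPM without the 53 of these cells that had under 1% mitochondrial UMIs.

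The RNA-binding effectors IFIT1 and IFIT2, which hold back translation of foreign RNA, differed in level from each other. IFIT1 stood at 68.8 CPM in lung and 183 CPM in aorta endothelial-like cells, and IFIT2 at 13.2 and 38.4 CPM. RSAD2, the viperin enzyme that makes a chain-ending nucleotide, was at 29.1 CPM (27.7 to 30.7) in the lung and 105.5 CPM (102 to 109) in the aorta. The dynamin-like GTPases MX1 and MX2 were at 66.2 and 43.0 CPM in the lung. In the aorta they reached 109 and 99.8 CPM, so the gap between them was smaller there.

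IRF7, the factor that amplifies interferon production, was at 21.8 CPM in the lung and 41.9 CPM in the aorta. EPSTI1, named for the interaction of epithelium and stroma, was at 24.9 and 52.8 CPM. CXCL10, the ligand of CXCR3 on activated T cells, was at 23.5 CPM (22.2 to 24.8) and 81.7 CPM (78.8 to 84.8). In the lung order of levels the intervals of CXCL10, EPSTI1 and IRF7 overlap their neighbours, as do those of IFIT1 and MX1, while ISG15, IFI6, MX2, RSAD2 and IFIT2 stand clear of the genes next to them. In the aorta the intervals of MX1, RSAD2 and MX2 overlap in turn, and so do those of IRF7 and IFIT2. This order rests in part on a few cells that held a UMI of the interferon beta gene IFNB1. Without the 4 such lung cells RSAD2, at 26.9 CPM (25.5 to 28.4), overlapped EPSTI1, at 24.5 CPM (23.1 to 25.9). Without the 5 such aorta cells CXCL10 was at 34.5 CPM, below EPSTI1 at 47.2 CPM. IFIT2, at 19.2 CPM (17.8 to 20.7), then no longer overlapped IRF7, at 37.2 CPM (35.2 to 39.3). IFI6, at 763 CPM (754 to 772), then stood above ISG15, at 742 CPM (733 to 751). RSAD2, at 76.9 CPM (74.0 to 79.8), fell clear of MX2, at 91.2 CPM (88.1 to 94.5), and of MX1, at 104 CPM (101 to 108).

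Of the 10 members, 7 were at least 2-fold higher in aorta than in lung endothelial-like cells, against 3.07% of 5902 genes, and 0 were 2-fold lower, against 1.29%. The median of the members was 2.49-fold, and the median of all genes 1.04-fold. RSAD2 led at 3.62-fold (3.41 to 3.85), then CXCL10 at 3.48-fold and IFIT2 at 2.91-fold. ISG15 and MX1 were lowest, at 1.60-fold and 1.65-fold. Under the gene limit 9 of 10 passed 2-fold, against 6.24% of 6075 genes, and 0 were lower, against 3.37%. There IFIT2 was 13.6-fold and CXCL10 8.38-fold higher, and MX1 1.63-fold. Without the 5 aorta and 4 lung cells that held a UMI of the interferon beta gene IFNB1, described last, 3 of 10 members passed 2-fold (RSAD2, MX2 and IFI6), and 8 of 10 under the gene limit. The share of all genes past 2-fold was not taken again without these cells, so these last counts have no share of their own beside them. The members were chosen with earlier results of both libraries known, so these counts are a description. Tissue, culture, depth and library cannot be told apart in this comparison.

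Most UMIs of some members sat in few cells. In lung endothelial-like cells CXCL10 was seen in 123 of 4926 cells, and 12 of them held 50% of its 1182 UMIs, with up to 92 in 1 cell. In the aorta 3 of 631 cells held 50% of 2868 CXCL10 UMIs, and 1 cell alone held 922, or 32.1%. IFI6 was spread widely by comparison, since 365 lung cells and 74 aorta cells were needed to reach the same share. Over lung endothelial-like cells thinned to 5000 UMIs each, the variance of ISG15 was 22.9 times its mean and that of CXCL10 13.8 times. Against 7244 genes seen in at least 5% of these cells, with a median of 1.02, ISG15 ranked 2 from the top, and CXCL10, which was seen in fewer cells than that, would rank 3. EPSTI1 was the most even member, at 1.36 times.

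Thinning draws the same number of UMIs from every cell, and the 99 lung and 4 aorta endothelial-like cells below 5000 were left out. ISG15 was then seen in 54.4% (53.0 to 55.8) of lung and 64.4% (60.5 to 68.2) of aorta endothelial-like cells. IFI6 was seen in 46.3% and 67.1%, MX1 in 21.4% and 34.3%, and IFIT1 in 18.9% and 30.3%. MX2 followed at 13.9% and 23.6%, and EPSTI1 at 10.1% and 15.0%. The scarcer members were IRF7 at 8.85% and 11.3%, RSAD2 at 6.28% and 13.1%, IFIT2 at 4.54% and 7.66%, and CXCL10 at 1.93% and 3.51%. Without thinning, the aorta shares rose to between 8.56% for CXCL10 and 94.8% for IFI6, so depth alone sets much of an unthinned share. As a gauge of free RNA, COL1A1 was seen in 6.32% of the thinned lung and 7.97% of the thinned aorta endothelial-like cells. The macrophage gene TYROBP was seen in 0.0622% and 0%. No aorta cluster was myeloid-like, so the aorta value of TYROBP gauges no free RNA there. The shares of CXCL10 and IFIT2 in both tissues and of RSAD2 in the lung are no larger than that of COL1A1, so they are not read as shares of cells that express the gene, and these members are better described by the UMIs of single cells given above. COL1A1 stood far higher in collagen-high cells than these members in any class, so its share does not measure their free RNA, which was not tested.

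A cell with UMIs of at least 5 of the 10 members after thinning was called responding. By this rule 386 of 4827 lung endothelial-like cells responded, 8.0% (7.25 to 8.80). In the aorta 98 of 627 did so, 15.6% (12.9 to 18.7), and under the gene limit 16 of 85, 18.8% (11.2 to 28.8). The rule cuts a gradual distribution. In the lung 321 cells lay just outside it, with 4 members, and 179 just inside, with 5, while in the aorta these were 79 and 34. All 10 members were found in 16 lung and 8 aorta endothelial-like cells. No member was found in 22.0% (20.9 to 23.2) of lung and 13.9% (11.3 to 16.8) of aorta endothelial-like cells.

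**Figure D2:**
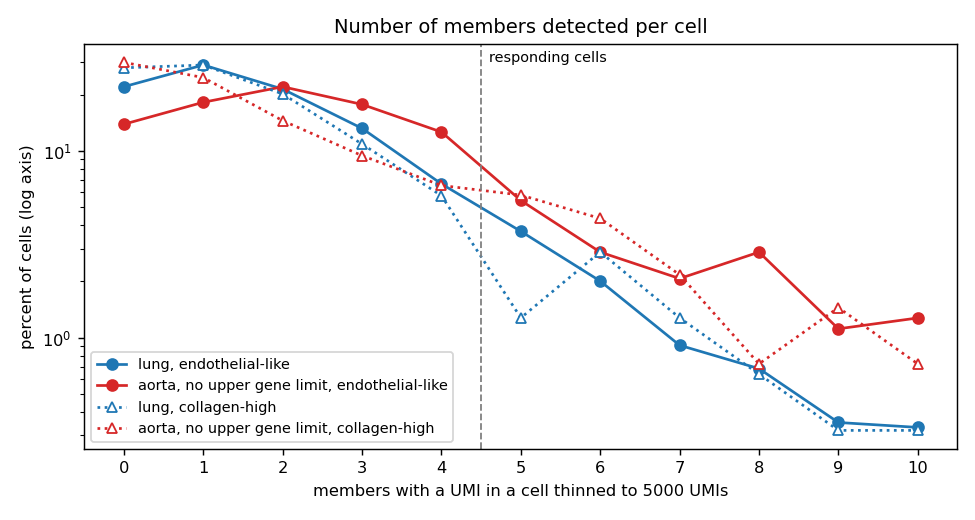
Percent of cells (log axis) by the number of members with a UMI, in cells thinned to 5000 UMIs, for endothelial-like (filled, solid) and collagen-high (open, dotted) cells of the lung (blue) and the aorta with no upper gene limit (red). The dashed line marks where responding cells begin, and the curves fall without a gap from 22.0% of lung endothelial-like cells with 0 members to 0.331% with 10.

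Responding and other endothelial-like cells were close in depth and in mitochondrial share, except in the aorta under the gene limit. In the lung their median UMI count was 9587.5 against 9647, and in the aorta 54862.5 against 55180. Mitochondrial UMIs made up 5.04% against 5.02% in the lung and 6.15% against 6.34% in the aorta. The 16 responding cells under the gene limit had a median of 9784.5 UMIs against 12262 in the other 69, and 5.05% against 7.10% mitochondrial UMIs. The 13 endothelial markers summed to 3413 CPM in responding and 3325 CPM in other lung cells, the 7 fibroblast markers to 120 and 106 CPM, and the 11 myeloid markers to 7.09 and 7.95 CPM, with 6 of the 11 at 0 in responding cells. In the aorta these sums were 3276 and 3284, 399 and 342, and 7.11 and 6.28 CPM, with 7 of the 11 myeloid markers at 0. The part of these differences in the responding share was not tested.

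The responding cells were not spread evenly over clusters. The members were picked after CXCL10, RSAD2 and IFIT2 were known to head a lung EC cluster, so this spread is a description. A lung cluster of 939 endothelial-like cells, led by MGP and SLPI and then by CXCL10, MX2 and RSAD2, held 173 of the 386, and 18.8% (16.4 to 21.5) of its thinned cells responded. In the other 5 endothelial-like clusters this share lay between 3.85% and 7.55%. The members summed to 2283 CPM in that cluster and to between 675 and 1257 CPM in the rest. The aorta had a cluster with similar leading genes, SLPI and CFD, of 229 cells. There 20.7% (15.6 to 26.6) of cells responded and the members summed to 3672 CPM, against 11.8% to 14.0% and 1427 to 1945 CPM in the other 3. Most aorta cells with an IFNB1 UMI lay in this cluster of 229. They held 2438, 1148, 2337 and 4184 of its 44347 UMIs of the members. Of its 2207 CXCL10 UMIs they held 278, 96, 922 and 83, so its raised level rests in part on these few cells. In the cluster of 173 cells 1 such cell held 2968 of 22203. The values of the clusters were not taken again without these cells. MGP was also the second of the genes outside the pathway by fold in responding over other lung cells, at 7.70-fold.

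By cell cycle phase, as scored from Seurat's gene lists, 10.6% (9.4 to 12) of lung endothelial-like cells in G1 responded, 4.35% (3.16 to 5.81) in S and 6.46% (5.29 to 7.80) in G2M. In the aorta the order was the same, at 17.4%, 11.9% and 15.5%, but those intervals overlap. Phase calls read the same sparse counts and any free RNA in them, and the part of either in these shares was not tested.

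The members rose and fell together from cell to cell. Over 4827 thinned lung endothelial-like cells all 45 pairs had a positive correlation of log2(1 + UMIs), with Pearson's r from 0.185 to 0.616 and a mean of 0.334. All 45 reached 0.1, as did 0.0628% of 26234146 pairs among the 7244 genes seen in at least 5% of these cells. Only 8 members are among those genes, since CXCL10 and IFIT2 were seen in fewer cells. ISG15 with IFI6 was the highest pair, at 0.616, and RSAD2 with IFIT1 the next, at 0.527. IFIT2 with EPSTI1 was the lowest. In 627 aorta cells the mean was 0.486, from 0.253 to 0.697. By the same 5% rule 1.48% of gene pairs reached 0.1, among genes that include 9 members but not CXCL10. The highest pairs there were RSAD2 with IFIT1 at 0.697 and CXCL10 with IFIT2 at 0.695. These cells share a library, and the correlation of scarce genes rests on few cells: CXCL10 and IFIT2 were seen together in 15 aorta cells. Without the cells with an IFNB1 UMI all 45 pairs again reached 0.1 in each tissue, with a mean of 0.321 in the lung and 0.416 in the aorta, and CXCL10 with IFIT2 stood at 0.555 in the aorta.

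**Figure D3:**
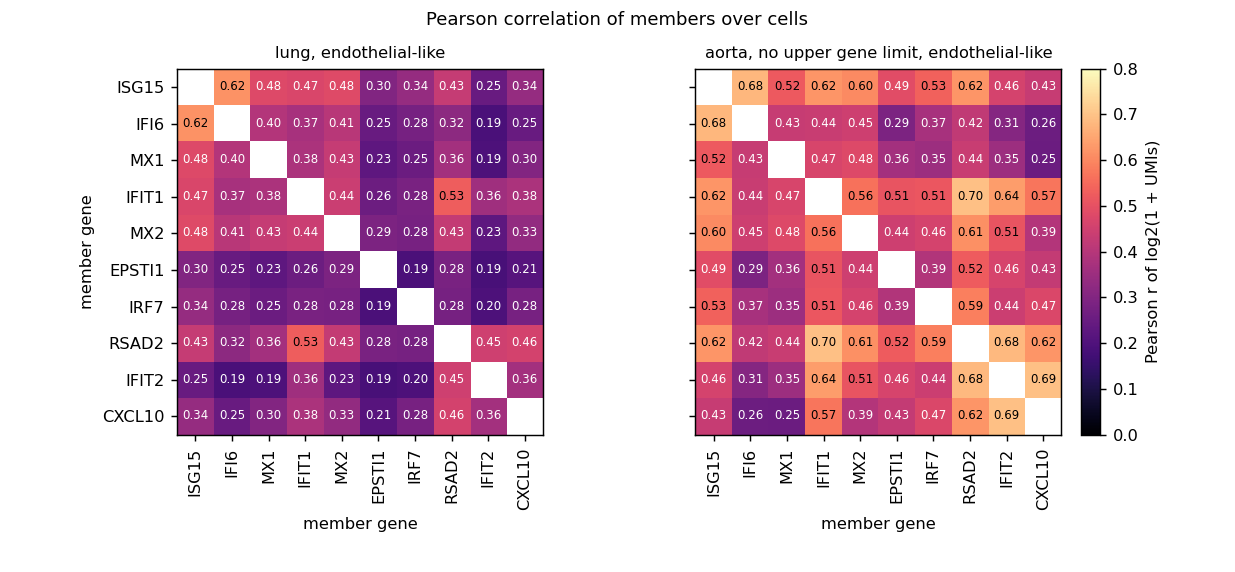
Pearson correlation of log2(1 + UMIs) between members over thinned endothelial-like cells of the lung (left, 4827 cells) and the aorta with no upper gene limit (right, 627 cells), written in each square. All squares are positive, and the block of RSAD2, IFIT1, IFIT2 and CXCL10 is brighter in the aorta, where it holds the highest pair, at 0.697.

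The same held in collagen-high cells, with a mean r of 0.315 over 313 lung cells and 0.441 over 138 aorta cells. The lowest lung pair there was at 0.00936. Endothelial RNA or doublets in these barcodes were not separated from transcripts of the collagen-high cells themselves, and their part was not tested.

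Grouping cells by how many of the other 9 members they carried gave the same picture in levels. CXCL10 was 121-fold higher (69.8 to 228) in lung endothelial-like cells with 4 or more other members than in those with 0 or 1, and 90.5% of its UMIs lay in the 14.5% of cells with 4 or more. RSAD2 was 56.8-fold higher, MX2 20.1-fold and ISG15 18.8-fold. The smallest folds were those of EPSTI1 at 6.90 and IRF7 at 8.65. In the aorta CXCL10 was 236-fold higher, with a wide interval of 42 to 9383 because the cells with 0 or 1 other member held 1 UMI. Without the 5 cells with an IFNB1 UMI it was 109-fold (19.0 to 4339), IFIT2 was 18.0-fold in place of 31.5-fold, and the other members moved by less than 1.5 times. With all cells RSAD2 was 64.7-fold higher there and IFI6 was lowest at 6.81-fold.

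The members also differed in how often they were seen in cells with few or many members. Each member counts toward the number itself, so the order is a description of these cells and not a sequence in time. Lung endothelial-like cells with exactly 1 member had ISG15 in 42.9% and IFI6 in 29.7% of cases, and CXCL10 in 0.360%. In the aorta IFI6 came before ISG15 in such cells, at 45.6% against 26.3%. For most members the order follows their overall share of cells. RSAD2, seen in fewer lung cells than EPSTI1 and IRF7, kept this order among the 97 lung cells with 6 members, at 37.1% against 44.3% and 42.3%. Among the 44 lung cells with 7 members it was present in 75% (59.7 to 86.8). EPSTI1 was then present in 50% (34.6 to 65.4) and IRF7 in 47.7% (32.5 to 63.3), so the intervals overlap. Among the 13 aorta cells with 7 members RSAD2 was present in 92.3%, but there it was seen in more cells than IRF7 to begin with. In lung cells with 7 members IFIT2 and CXCL10 were seen least, at 25% and 22.7%. In the 17 lung cells with 9 members CXCL10 was again lowest, at 58.8%, followed by IRF7 at 70.6% and IFIT2 at 82.4%. MX1 was absent from 3 of the 7 aorta cells with 9 members, which all had RSAD2, IFIT1 and MX2.

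**Figure D4:**
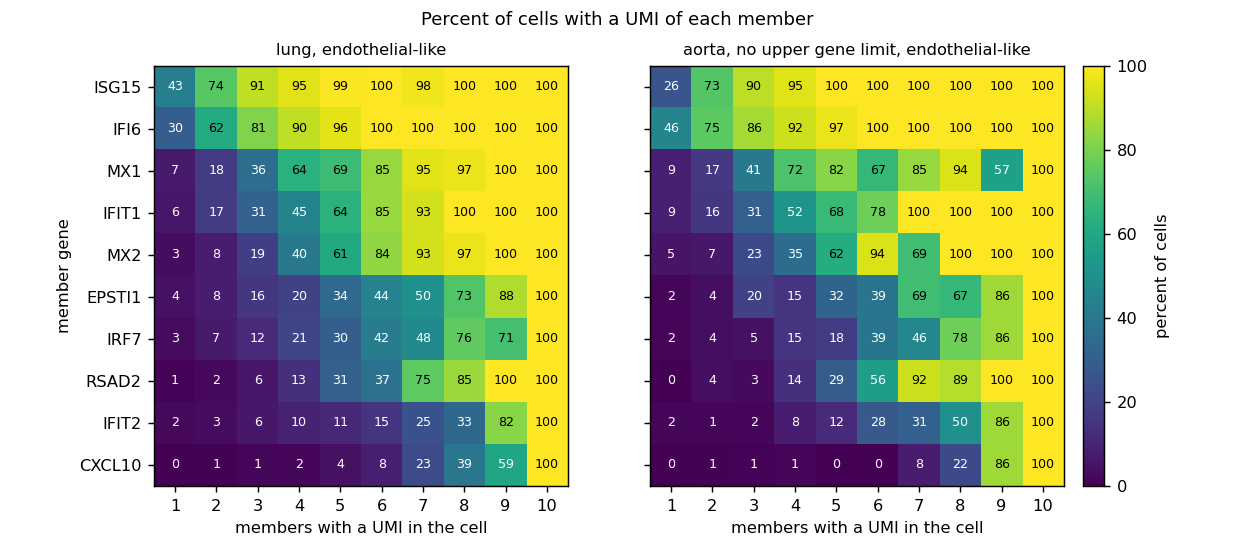
Percent of endothelial-like cells with a UMI of each member (rows, ordered by their overall share in the lung) among cells with a given number of members (columns), for the lung (left) and the aorta with no upper gene limit (right). ISG15 and IFI6 are near 100 from 5 members on, RSAD2 rises between 6 and 7 members, from 37.1 to 75 in the lung, and CXCL10 is lowest in lung cells with 5 to 7 members, where it reaches 22.7.

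Endothelial-like cells carried more of most members than collagen-high cells, and this gap was wider in the aorta. In the lung RSAD2 was 3.01-fold higher (2.17 to 4.29) in endothelial-like cells, at 29.1 against 9.70 CPM, while the other folds lay between 0.908 for IFI6 and 1.60 for IRF7. EPSTI1 was at 24.9 and 25.7 CPM, a fold of 0.969 whose interval, 0.788 to 1.20, includes 1. In the aorta CXCL10 was 18.3-fold higher (13.3 to 25.7), at 81.7 against 4.47 CPM, RSAD2 8.07-fold, IFIT1 3.41-fold and IRF7 2.61-fold. MX1 and EPSTI1 were nearly level, at 1.20-fold and 1.17-fold. Without the 5 cells with an IFNB1 UMI the aorta folds were 7.72 (5.61 to 10.9) for CXCL10, 5.88 for RSAD2 and 2.42 for IFIT1, and IFIT2 turned from 1.76 to 0.881, with an interval of 0.749 to 1.04. The sums were 1144 and 997 CPM in the lung, and 2400 and 1189 CPM in the aorta.

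PECAM1, an adhesion protein of endothelium, gauges endothelial RNA counted in collagen-high cells. In the lung its level in collagen-high cells was 9.57% of that in endothelial-like cells, and in the aorta 1.10%. Every member was above this in collagen-high cells, from 33.3% for RSAD2 to 110% for IFI6 in the lung and from 5.48% for CXCL10 to 85.1% for EPSTI1 in the aorta. PECAM1 was seen in 23.6% of thinned collagen-high lung cells and 7.25% of those in the aorta. Of the members, ISG15 at 44.7% and IFI6 at 51.1% were seen in more of the lung cells than that, and the other 8 in fewer. The members did not keep 1 ratio between the classes: per 100 UMIs of ISG15, CXCL10 had 9.24 in endothelial-like and 0.948 in collagen-high aorta cells, and MX1 12.3 and 19.3. Without the 5 cells with an IFNB1 UMI the endothelial-like values were 4.65 and 14.1. In the lung CXCL10 had 4.25 and 3.40. The level of PECAM1 does not measure the free RNA of other genes. The part of endothelial RNA in the collagen-high values was not tested.

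After thinning, the shares of responding cells in the classes of each tissue had overlapping intervals. The share was 6.71% (4.2 to 10.1) in collagen-high lung cells, 21 of 313, and 15.2% (9.67 to 22.3) in those of the aorta, 21 of 138. The overlap does not show that the classes respond alike, and other values set them apart in the aorta. Without thinning, 79.2% (75.9 to 82.3) of endothelial-like and 45.1% (36.7 to 53.6) of collagen-high aorta cells responded, at median depths of 54960 and 61722 UMIs. After thinning, 13.9% (11.3 to 16.8) and 29.7% (22.2 to 38.1) had no member. The 16 cells of the smaller aorta collagen-high cluster held 5 of the 21, with a summed level of 2465 CPM against 1028 CPM in the larger one. Under the gene limit 2 of 11 collagen-high aorta cells responded, too few to compare. Myeloid-like lung cells had a summed level of 1184 CPM, and 4 of 78 responded, 5.13% (1.41 to 12.6).

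Next, genes of the pathway outside the 10 members were compared between responding and other endothelial-like cells, since none of them was used to call a cell responding. Of 58 such genes at 20 CPM or more in the lung, 32 were at least 2-fold higher in responding cells, against 1.25% of 5610 genes, and 0 were 2-fold lower, against 0.0357%. In the aorta 36 of 65 were higher, IFNB1 with 0 UMIs in other cells among them, against 1.65% of 5871 genes, and 0 were lower, against 0%. Without the cells with an IFNB1 UMI these were 31 of 57 in the lung and 31 of 60 in the aorta, but the share of all genes was not taken again without them. The median of all genes was 0.975-fold in the lung and 0.965-fold in the aorta.

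Among the ligands, IFNB1 (chr1:201850935-201851495), which encodes interferon beta, had 14 UMIs in responding lung cells and 188 in responding aorta cells, and 0 in other endothelial-like cells of either tissue. IL29, a type III interferon, had 0 and 10 UMIs in responding and other lung cells, and 2 and 8 in the aorta. IFNA1, IFNE, IFNG and IFNK had 0. Over the 34 interferon genes that the matrices name there were 30 UMIs in the whole lung library and 208 in that of the aorta. IL28B, another type III interferon, had 0 as well. IFNW1 and the receptor gene IFNAR2 were not analysed here.

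The receptors did not pass 2-fold. All 4 at 20 CPM lay between 0.970 for IFNAR1 and 1.21 for IFNGR2 in the lung, and between 0.797 for IFNGR1 and 1.11 for IFNGR2 in the aorta. Of the signal transducers, STAT2 passed 20 CPM in the aorta, where it was 3.07-fold higher in responding cells, while the kinase JAK1 stood at 1.05 in the lung and 0.943 in the aorta. The other IRF factors at this level, IRF1, IRF2 and IRF3, stayed under 2-fold, with IRF1 highest at 1.63 in the lung.

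Of the nucleic acid sensors and their adaptors, 4 of 6 were 2-fold higher in the lung and 5 of 8 in the aorta. DDX58, which encodes RIG-I, was 12.9-fold higher (11.8 to 14.1) in lung and 9.66-fold in aorta responding cells. DHX58 followed at 6.28-fold and 4.80-fold, IFIH1, which encodes MDA5, at 4.35-fold and 4.84-fold, and the kinase EIF2AK2 at 2.48-fold and 2.01-fold, the last of which was 1.94 without the cells with an IFNB1 UMI. TMEM173, which encodes the adaptor STING, stood at 0.978 and 1.23 and the kinase TBK1 at 0.885 and 1.18, neither past 2-fold.

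All 25 other antiviral genes at 20 CPM were 2-fold higher in responding lung cells, with a median of 3.11, and 24 of 25 in the aorta, with a median of 3.82. TNFSF10, the death ligand TRAIL, led at 8.24-fold and 12.6-fold, or 7.31-fold and 9.30-fold without the cells with an IFNB1 UMI. USP18, which removes ISG15 from proteins, was at 6.37-fold and 5.92-fold, OAS2 at 6.36-fold and 4.4-fold, and DDX60 at 5.55-fold and 5.02-fold. HERC6 and IFITM3 were lowest in the lung, at 2.11 and 2.14, and TRIM25 in the aorta, at 1.97.

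CCL5, a chemokine for T cells and monocytes, was 16.7-fold higher (15.8 to 17.8) in responding lung cells and 20.0-fold in the aorta, or 15.2-fold and 8.33-fold without the cells with an IFNB1 UMI. CXCL11, which binds the same receptor as CXCL10, passed 20 CPM only in the aorta, where 135 UMIs in responding and 4 in other cells made a ratio of 182 (69.5 to 678), and 23 against 4 without those 5 cells one of 33.0 (11.3 to 131). CXCL9, the remaining ligand of that receptor, had 0 UMIs in responding cells of both tissues and 4 in other lung cells. The feedback inhibitors PIAS1 and PTPN2 lay between 0.919 and 1.07. SOCS1 and SOCS3, also of this role, did not reach 20 CPM. Without the cells with an IFNB1 UMI SOCS1 was at 2.95-fold (1.37 to 5.80) in the lung, from 11 and 44 UMIs. In the aorta it was at 1.43-fold (0.789 to 2.47), and SOCS3 stood at 0.910 in the lung and 1.01 in the aorta.

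Of 7 antigen presentation genes TAP1, a peptide transporter subunit, was the 1 past 2-fold in each tissue, at 2.20 and 2.39. B2M, the light chain of MHC class I, stood at 1.55 and 1.67. The NF-kB response genes, which mark inflammatory activation through another route, gave 0 of 8 past 2-fold in the lung and 1 of 9 in the aorta, IL6 at 2.05-fold, or 1.65-fold without the cells with an IFNB1 UMI. CCL2 stood at 1.30 and 1.22, CXCL8 at 1.10 and 1.06, and VCAM1 at 1.14 and 0.946.

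**Figure D5:**
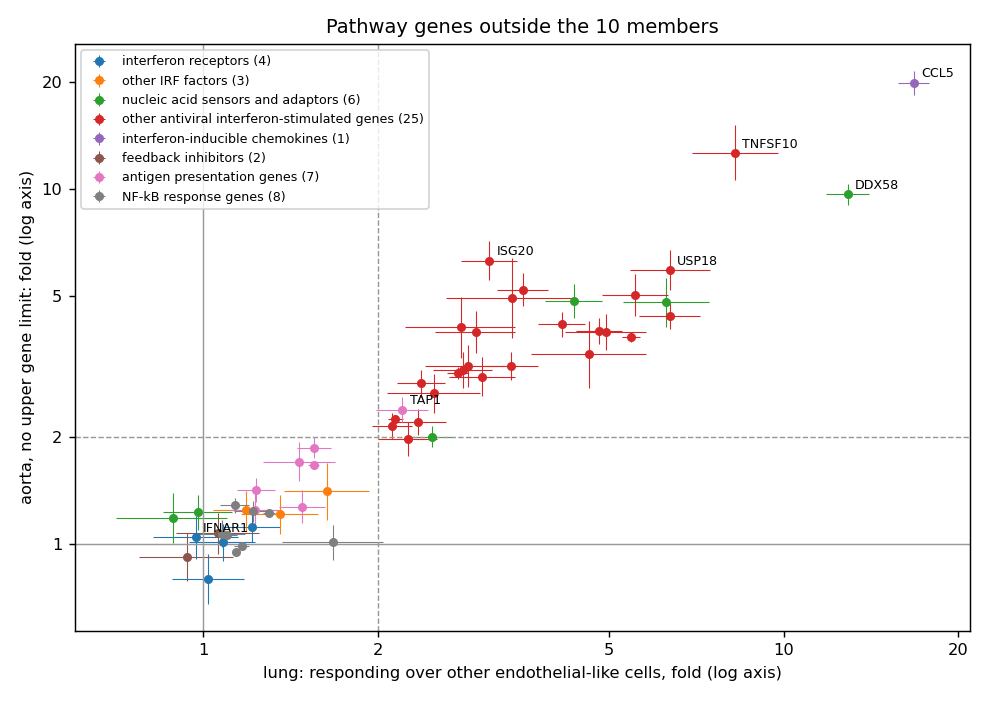
Fold of each of 56 pathway genes outside the members, signal transducers not shown, in responding over other endothelial-like cells of the lung (x, log axis) and of the aorta with no upper gene limit (y, log axis), coloured by role, with exact 95% intervals for counting error. Dashed lines mark 2-fold. CCL5, at 16.7 and 20.0, DDX58 and TNFSF10 lie farthest out, and receptors, the feedback inhibitors PIAS1 and PTPN2 and NF-kB response genes lie near 1.

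The genes most like the members, by Pearson's r with the number of members detected, were ISG12(A), at 0.574 over 4827 lung and 0.643 over 627 aorta endothelial-like cells, and DDX58, at 0.479 and 0.596. The median over all 7236 lung genes compared was -0.00431. BST2, LGALS3BP, IFITM3 and B2M were among the top 10 of both tissues, as were ENSSSCG00000032436 and ENSSSCG00000014565, which have no symbol. UBE2L6 and OAS2 completed the lung list, and ISG20 and PLAC8 that of the aorta.

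Outside the pathway list, the highest folds in responding lung cells among genes at 50 CPM or more were those of ENSSSCG00000014618 at 8.18, MGP at 7.70, FBXO39 at 5.46, PLAC8 at 4.24 and LGALS3BP at 3.87. The lowest were DESI2 at 0.480, ENSSSCG00000031741 at 0.588, PHGDH at 0.596, TK1 at 0.628 and ASNS at 0.636. PHGDH and ASNS make the amino acids serine and asparagine, and TK1 makes a DNA precursor in S phase. FBXO39 (5.57-fold), PLAC8 (7.0-fold) and ENSSSCG00000014618 (14.2-fold) were also among the 5 highest in the aorta, and DESI2 (0.603) among its 5 lowest.

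The cells with IFNB1 were singled out after their values had been seen. IFNB1 UMIs were in 4 lung and 5 aorta cells, and all 9 were endothelial-like and responding. After thinning, the lung cells carried 10, 6, 10 and 5 members and the aorta cells 10, 10, 10, 9 and 10. IFNB1 itself had 11, 1, 1 and 1 UMIs in the lung cells and 137, 45, 4, 1 and 1 in the aorta cells. The 9 cells had between 7955 and 87519 UMIs and 2.69% to 6.06% of them were mitochondrial.

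In the aorta these 5 cells, 0.792% of the endothelial-like cells, held 58.1% of all CXCL10 UMIs and 50.4% of those of IFIT2. They held 29.5% of IFIT1, 27.8% of RSAD2 and 16.8% of ISG15 UMIs, but 5.87% of IFI6 and 5.27% of MX1 UMIs. Of the genes outside the 10, they held 80.6% of CXCL11 and 47.8% of CCL5 UMIs. In the lung the 4 cells held 14.7% of IFIT2 and 8.12% of CXCL10 UMIs, and 0.429% of those of IFI6. In the aorta CXCL10 and IFIT2 thus had the largest share of their UMIs in cells with IFNB1, and MX1 and IFI6 the smallest.

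Without these cells the members summed to 2046 CPM (2031 to 2061) in aorta and 1123 CPM (1114 to 1133) in lung endothelial-like cells, and 15.0% and 7.92% of cells responded. The aorta over lung fold of CXCL10 fell from 3.48 to 1.60 (1.47 to 1.74) and that of IFIT2 from 2.91 to 1.70, while IFI6 stood at 2.55 in place of 2.67. RSAD2 remained highest at 2.85. Under the gene limit 1 such cell held 24.6% of the UMIs of the 10 members, and without it the sum was 2718 CPM (2629 to 2809) and IFIT2 was 7.25-fold above the lung.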

How the data were processed

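The deposited values are raw UMI counts that Cell Ranger 3.0.2 made for each gene and cell barcode on Sscrofa11.1. They come before the study's limits on cells, of which the upper gene limit was its removal of doublets. All values were whole numbers. The members and the lists of pathway and marker genes were chosen with earlier results of these data known. Genes named are the 10 members, for each pathway role up to 4 with the highest and 2 with the lowest fold (ligands always), the 10 most correlated with the number of members detected, and the 5 highest and lowest folds outside the pathway at 50 CPM. CCL2, CXCL8, CXCL9, SOCS1, SOCS3 and the cells with IFNB1 were added after their values had been seen.

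Each library was clustered alone in Seurat 5.3.0 (R 4.3.3) from 2000 variable genes, less markers, members and pathway genes, with 20 principal components and a resolution of 1. The thresholds that name a class were chosen after the marker levels had been seen, so classes need not match those of the study. Other steps used Python 3.11.15, numpy 2.4.6, pandas 2.3.3 and scipy 1.17.1. Cells were thinned with seed 1. No doublet caller was run. In its place the 5% of cells with most UMIs were left out as an alternative. A 2-fold difference in summed UMIs is a size and not a test, because each tissue has 1 library and cells are not replicates. Intervals cover counting error only. The scripts were tested on simulated data. The result of 1 pathway gene and 1 promoter stretch are not reported here.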

Additional observations from a re-analysis of the deposited data

Results flagged for a closer look

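Cells in neither class also carried the members, and the clusters below were left out of the classes compared. In the lung a cluster of 293 cells had a summed level of 445.8 CPM and a cluster of 41 cells 1036 CPM. In the aorta with no upper gene limit a cluster of 78 cells stood highest of the 9 clusters, at 4742 CPM, and had CXCL10, IFIT2, IFIT1 and PLAC8 among its leading genes. Its median was 2209.5 UMIs per cell with 0.263% of them mitochondrial, so 8 of the 78 cells were deep enough for thinning. Under the gene limit a cluster of 71 cells with like depth and mitochondrial share was named endothelial-like and is part of the values given there. The other aorta clusters in neither class had 839 CPM (64 cells) and 470.8 CPM (40 cells), and under the gene limit a cluster of 67 cells had 873 CPM. Barcodes outside the limits on the lowest gene number and the mitochondrial share held the members at 281 CPM in the lung (237 barcodes) and 555 CPM in the aorta (230 barcodes). What sets these levels was not tested.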

How the results depend on the processing

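Of 120 values under alternatives, 85 moved by less than the counting interval and 35 by more, and none is a tested call, since each tissue has 1 library. The share of responding cells depends on its rule. With at least 4 members it was 14.6% in lung and 28.2% in aorta endothelial-like cells and 12.5% in collagen-high lung cells, and with at least 6 it was 4.29% and 10.2%, and 9.42% in collagen-high aorta cells. Thinned to 3000 UMIs the endothelial-like shares were 4.11% and 9.55% and the collagen-high shares 3.67% and 8.63%. Without thinning they were 16.6% and 79.2%, and 13.8% and 45.1%, and the mean correlation of the pairs was 0.396 in the lung and 0.585 in the aorta (0.421 at 3000 UMIs). The summed level in lung endothelial-like cells was 1122 CPM with classes from marker UMIs of single cells, 1132 under 10% mitochondrial UMIs and 1211 CPM of the UMIs outside mitochondrial genes. In the aorta these were 2379, 2340 and 2579 CPM, and 2445 as a mean over cells. Under the gene limit it was 3798 under 10% mitochondrial UMIs, 3324 without cells under 1%, 3824 outside mitochondrial genes and 3339 as a mean over cells. In collagen-high cells it was 1063 and 953 CPM in the lung and 1272 and 1280 in the aorta for the last 2 of these. Leaving out cells with an IFNB1 UMI, chosen after seeing the data, gave 1123, 2046 and 2718 CPM for lung, aorta and aorta under the gene limit, and leaving out the 5% of cells with most UMIs, also chosen then, moved no share beyond its interval. With no limit on low levels 45 of 83 pathway genes passed 2-fold in the lung and 48 of 83 in the aorta, but so did 22.4% of 15431 and 17.7% of 15401 genes. No paired analysis was possible because each tissue has 1 library. Depth limits single cells most: at 5000 UMIs, 1 UMI is 200 CPM, so a member at a lower level cannot be seen in every cell that carries it.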
